A study of Mus musculus with 6 samples.

Results

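Left ventricular RNA of C57BL/6J mice aged 12 months was measured in 6 libraries, 3 from wild-type mice (WT) and 3 from mice labelled as overexpressing PGC-1α (PKI). The genes described here are 10 that act at the gate into the cell division cycle, taken by symbol from the 52550 rows of the gene table, each on 1 row: the cyclin-dependent kinase inhibitor genes Cdkn1a, Cdkn1b and Cdkn1c, the D cyclin genes Ccnd1, Ccnd2 and Ccnd3, the stress genes Gadd45a, Gadd45b and Gadd45g, and the p53 ligase gene Mdm2. All 10 reached the level set for testing, 1 FPKM or more as the mean of the 6 libraries. The labels give no promoter, construct or Cre driver for the overexpression, and nothing in them says that the libraries are from different animals; p-values therefore speak of the spread among these samples alone, and that spread may be technical.

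In a cell leaving rest, D cyclins bind the kinases CDK4 and CDK6, which phosphorylate the retinoblastoma protein and free the E2F factors that start DNA synthesis. The CIP/KIP proteins p21 (Cdkn1a), p27 (Cdkn1b) and p57 (Cdkn1c) bind cyclin-kinase complexes and hold them inactive, and they also help D cyclins to assemble with their kinases. GADD45 proteins are small stress-induced proteins that bind PCNA, p21 and the kinase MAP3K4, which feeds the p38 and JNK pathways. The transcription factor p53 induces Cdkn1a, Gadd45a and Mdm2, and MDM2 in turn marks p53 for degradation. Most adult cardiomyocytes have left the cell cycle, while fibroblasts, endothelial cells and macrophages of the heart can still divide.

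The values are FPKM, fragments mapped to a gene relative to its length and to all mapped fragments, so levels can be set against each other between genes, and the read depth behind them is unknown. Genes of the mitochondrial genome with their nuclear copies took 81.8% to 82.3% of all FPKM in WT and 78.0% to 78.2% in PKI-labelled libraries, and the 9907 tested genes had a median log2 change of 0.21. Division by median-of-ratios size factors (0.898 to 0.922 in WT, 1.10 to 1.13 in PKI-labelled libraries) moved that median to −0.02. The log2 change of each of the 10 genes is given below both as deposited and after this scaling. Folds, and the changes of some other genes, are given as deposited alone. Ppargc1a, the gene of PGC-1α, was not higher in the PKI-labelled libraries (14.2, 12.8 and 12.4 FPKM in WT and 11.6, 11.8 and 11.4 in PKI). All its PKI values lay below all its WT values. The log2 change was −0.16 as deposited and did not pass (adjusted p = 0.0967). After scaling it was −0.44 and Ppargc1a was called lower (adjusted p = 0.00521). Every direction below therefore follows the labels alone. Cardiomyocyte markers summed to 10299 to 11035 FPKM in WT and 10609 to 11576 in PKI-labelled libraries, with Actc1 and Myh6 highest. Of the 8, Actc1 was called higher (1.25-fold) and Myl2, Tnni3 and Pln lower as deposited, and after scaling 0 were higher and 7 lower, all but Actc1. Of all tested genes, 36.4% were called higher and 2.96% lower as deposited, and 7.82% and 9.18% after scaling.

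The clearest difference among the 10 genes lay in 1 inhibitor, Cdkn1a, which was 3.85-fold higher in PKI-labelled libraries. Ccnd2, Ccnd1, Gadd45g and Mdm2 were also higher, by 1.69-fold, 1.49-fold, 2.31-fold and 1.36-fold. The other inhibitors of the family, Cdkn1b and Cdkn1c, did not pass and had mean levels below WT. In bulk tissue, fewer cells of a type and less RNA per cell cannot be told apart. In counts, 5 of 10 were called higher at an adjusted p under 0.05 and 0 lower, in a table where 36.4% of tested genes were called higher and 2.96% lower. After scaling, 3 of 10 were called higher (Cdkn1a, Ccnd2 and Gadd45g) and 0 lower, against 7.82% higher and 9.18% lower over all tested genes. The median log2 change of the 10 was 0.44 as deposited and 0.19 after scaling. In 6 of 10 genes the lowest PKI-labelled library exceeded the highest WT library, and in 0 the reverse held, as was the case for 51.3% and 4.53% of tested genes.

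**Figure D1:**
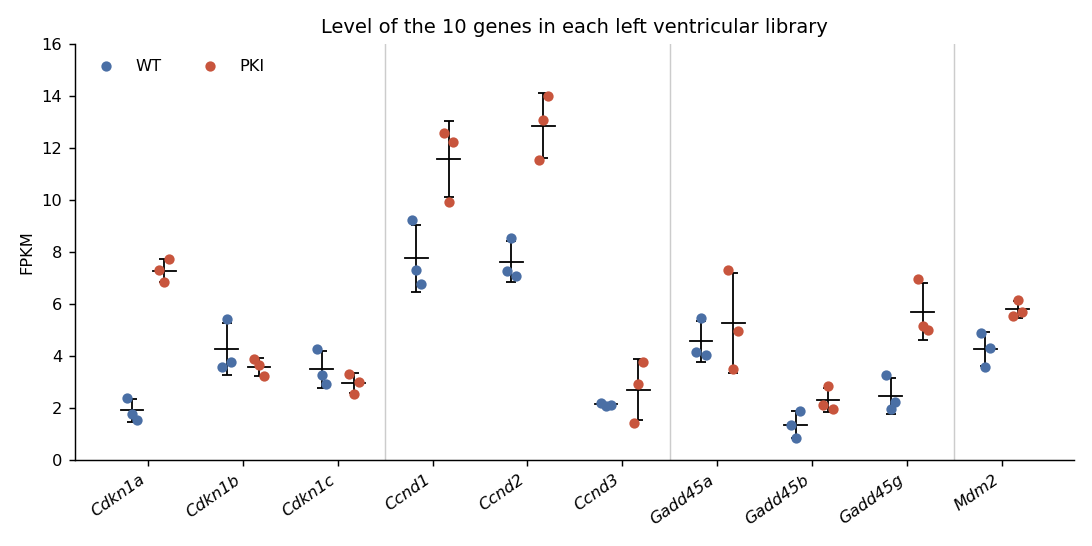
FPKM (vertical axis) of each of the 10 genes in the 3 WT libraries (blue) and the 3 PKI-labelled libraries (red); horizontal bars are group means, error bars the SD, and grey lines part the families. Cdkn1a shows the widest gap between the groups for its level, while the points of Cdkn1b, Cdkn1c, Ccnd3 and Gadd45a overlap.

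The order of the levels differed between the groups. In WT the D cyclin genes Ccnd1 (7.75 FPKM) and Ccnd2 (7.61) stood first and overlapped each other, and every other gene had all its libraries below them. Gadd45a (4.55), Cdkn1b (4.24), Mdm2 (4.24), Cdkn1c (3.48), Gadd45g (2.46), Ccnd3 (2.12), Cdkn1a (1.89) and Gadd45b (1.34) followed, each overlapping the next over its 3 libraries. Cdkn1a was thus rank 9 of 10 in WT. In the PKI-labelled libraries it was rank 3 (7.27), with no library overlapping its neighbours by mean, Ccnd1 (11.6) above it and Mdm2 (5.78) below it. Its range of 6.82 to 7.70 did include the replicate 1 values of Gadd45a (7.32) and Gadd45g (6.96). Ccnd2 (12.9) overlapped Ccnd1, and from Mdm2 through Gadd45g (5.69), Gadd45a (5.25), Cdkn1b (3.57), Cdkn1c (2.94), Ccnd3 (2.70) and Gadd45b (2.29) neighbours overlapped again.

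Cdkn1a (ENSMUSG00000023067, chromosome 17: 29090976 to 29100727, plus strand, GRCm38) encodes p21, the inhibitor that p53 and other stress factors induce. RefSeq gives it 2 transcription starts, and the bases before each are shown because Cdkn1a had the largest log2 change of the 10. The first stretch lies at chr17:29090729-29090975 and the second at chr17:29093519-29093768, both on the plus strand of GRCm38.p6 and ending before the start or the first annotated exon. Capitals mark a match to the p53 response element in the first and GC boxes (GGGCGG) in the second.
Cdkn1a, upstream start: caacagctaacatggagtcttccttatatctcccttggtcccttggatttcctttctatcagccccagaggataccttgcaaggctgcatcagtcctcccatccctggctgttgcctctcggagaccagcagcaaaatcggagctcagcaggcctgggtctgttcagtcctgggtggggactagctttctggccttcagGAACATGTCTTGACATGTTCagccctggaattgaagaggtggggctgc
Cdkn1a, downstream start: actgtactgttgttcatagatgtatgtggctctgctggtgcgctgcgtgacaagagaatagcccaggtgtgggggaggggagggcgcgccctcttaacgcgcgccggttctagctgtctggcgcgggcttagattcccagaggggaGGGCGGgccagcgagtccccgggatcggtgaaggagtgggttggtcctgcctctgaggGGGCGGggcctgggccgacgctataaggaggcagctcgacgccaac
The p53 match spans positions −51 to −32 before the upstream start (chr17:29090928-29090947). It was searched as a pair of adjacent half-sites on both strands with at most 1 mismatch over 20 bases, a rule chosen after the sequence was seen. Of 32851 RefSeq promoter windows, each running from 250 bases before a start into the transcript, 22 (0.0670%) held such a match, and among the 9 windows of the 7 of these genes that had one, the upstream window of Cdkn1a was the single window with it. Sequence outside these windows was not searched, so a p53 match elsewhere in any of these genes would not be seen. GC boxes lay at −104 to −99 and −46 to −41 of the downstream start, and 35.7% of all windows held one. The gene-level FPKM does not say which start was used.

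Cdkn1a stood at 2.38, 1.77 and 1.53 FPKM in the WT libraries and at 7.30, 6.82 and 7.70 in those labelled PKI. The lowest PKI value was well above the highest WT value, and the SD was 0.440 in both groups (n = 3 each). The log2 change was 1.53 (SE 0.11, 95% interval 1.26 to 1.80, adjusted p = 0.000536), and 1.30 after scaling (adjusted p = 0.00122). It was called in all 15 alternative settings in which it was tested, with adjusted p from 0.000256 to 0.00470.

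Cdkn1b (ENSMUSG00000003031, chromosome 6: 134920401 to 134925513) encodes p27, an inhibitor that is high in resting cells. Its values were 3.58, 5.40 and 3.76 FPKM in WT and 3.86, 3.65 and 3.20 in PKI-labelled libraries. The groups overlapped, and 1 WT library stood above the rest. The log2 change was −0.18 (95% interval −0.507 to 0.137, adjusted p = 0.303), and −0.42 after scaling (adjusted p = 0.0824). Cdkn1c (ENSMUSG00000037664, chromosome 7: 143458339 to 143461050), whose product p57 comes from an imprinted gene, had 4.27, 3.27 and 2.90 FPKM in WT and 3.29, 2.53 and 3.0001 in PKI-labelled libraries. These groups overlapped too, with a log2 change of −0.18 (95% interval −0.483 to 0.126, adjusted p = 0.292), and −0.40 after scaling (adjusted p = 0.0724). Both intervals after scaling lay below 0 (−0.748 to −0.0945 for Cdkn1b, −0.703 to −0.105 for Cdkn1c), without passing the adjustment over all genes. As deposited, the change of Cdkn1b was −0.03 without WT replicate 2 and that of Cdkn1c −0.06 without WT replicate 1.

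**Figure D2:**
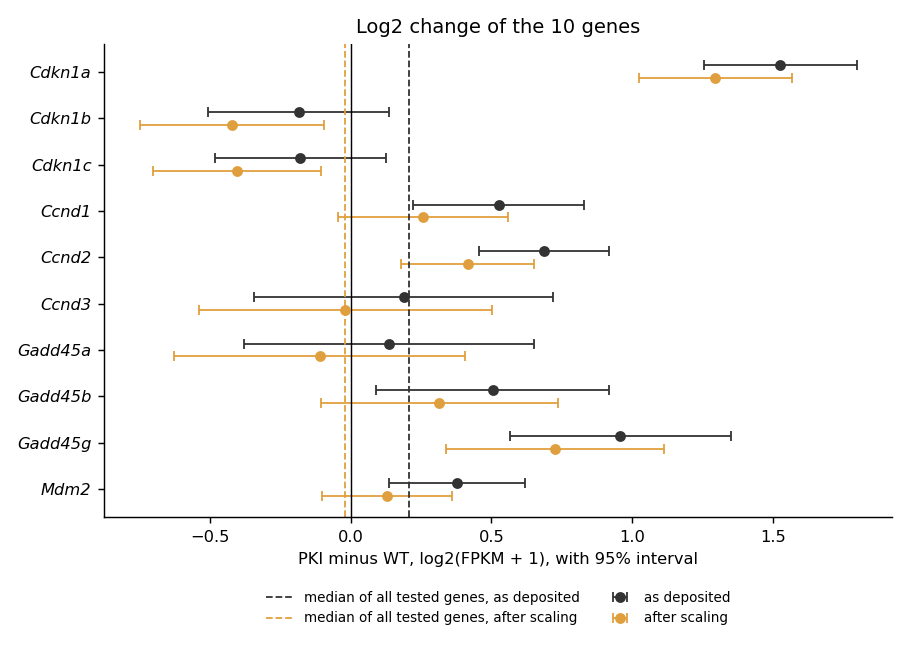
Log2 change of each gene, PKI minus WT on the log2(FPKM + 1) scale (horizontal axis), with 95% intervals, as deposited (black) and after scaling (orange); dashed lines are the medians of all 9907 tested genes, 0.21 and −0.02. The points of Cdkn1a, Ccnd1, Ccnd2, Gadd45b, Gadd45g and Mdm2 lie to the right of the matching dashed line on both scales, with Cdkn1a farthest, and those of Cdkn1b and Cdkn1c to the left.

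A share within a library does not change when the library is rescaled, so the make-up of each family was also read as the share of each gene in the summed FPKM of its 3 members. Cdkn1a made up 23.3%, 16.9% and 18.7% of CIP/KIP FPKM in WT and 50.5%, 52.5% and 55.4% in PKI-labelled libraries. The largest part of the family in WT, Cdkn1b with 44.2% ± 8.48 (SD, n = 3), was at 25.9% ± 2.62 in PKI-labelled libraries, and Cdkn1c was at 36.2% ± 5.23 and 21.3% ± 1.68. None of these 3 shares overlapped between the groups, but they sum to the whole in each library. A higher share of Cdkn1a thus comes with a lower share of the others together, and the 3 are not separate results. Exact two-sided permutation tests gave p = 0.1 for each, the smallest value that 20 arrangements of 3 against 3 allow, and 0.18 adjusted over 9 shares. The summed level of the family was 9.62 ± 1.25 FPKM in WT and 13.8 ± 0.731 in PKI-labelled libraries.

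**Figure D3:**
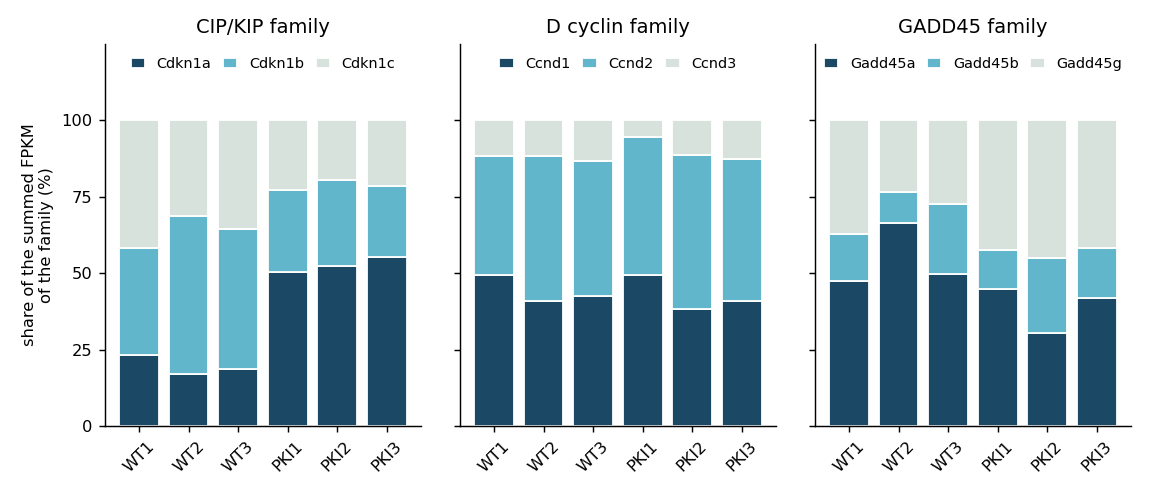
Share of each gene in the summed FPKM of its family (vertical axis, percent) in each library, for CIP/KIP inhibitors, D cyclins and GADD45 genes. Cdkn1a grows from 16.9% to 23.3% in WT to 50.5% to 55.4% in PKI-labelled libraries, while the shares of the D cyclins overlap between the groups.

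D cyclins rose in 2 of 3 members as deposited and in 1 after scaling, beside 36.4% and 7.82% of all tested genes called higher. Ccnd2 (ENSMUSG00000000184, chromosome 6: 127125162 to 127152193) encodes cyclin D2, a partner of CDK4 and CDK6. It stood at 7.25, 8.52 and 7.06 FPKM in WT and at 11.5, 13.1 and 13.99 in PKI-labelled libraries. All PKI values lay above all WT values, with a log2 change of 0.69 (SE 0.10, adjusted p = 0.00321), and 0.42 after scaling (adjusted p = 0.0310). The call of Ccnd2 was kept in all 16 alternative settings.

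Ccnd1 (ENSMUSG00000070348, chromosome 7: 144929931 to 144939925) encodes cyclin D1, which growth factors induce. Its values were 9.21, 7.31 and 6.75 FPKM in WT and 12.6, 9.90 and 12.2 in PKI-labelled libraries, without overlap. The log2 change was 0.53 (SE 0.13, adjusted p = 0.0193), and 0.26 after scaling, where it did not pass (adjusted p = 0.226). The call was also lost without WT replicate 2 (adjusted p = 0.0566), WT replicate 3 (0.0616), PKI replicate 1 (0.0594) or PKI replicate 3 (0.0613). Ccnd3 (ENSMUSG00000034165, chromosome 17: 47505051 to 47599691), the gene of cyclin D3, had 2.19, 2.06 and 2.12 FPKM in WT and 1.42, 2.90 and 3.77 in PKI-labelled libraries. The PKI libraries lay on both sides of the WT libraries, and the SD was 1.19 in PKI against 0.0666 in WT. The log2 change was 0.19 (95% interval −0.343 to 0.719, adjusted p = 0.518), and −0.02 after scaling. It was also negative without PKI replicate 3 (−0.02), and without PKI replicate 1 it passed (0.47, adjusted p = 0.0269). The kit does not mark strand, and Ccnd3 overlaps the oppositely placed gene Bysl over 361 bases (3.40 to 5.34 FPKM), so reads there cannot be told apart. The same holds for Ccnd1 with LTO1 (0.695 to 0.986 FPKM) and for Ccnd2 with 9330179D12Rik (0.156 to 0.666 FPKM). It also holds for Cdkn1a with AC167363.2 over 1046 bases, and no FPKM was listed for AC167363.2.

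The shares of the 3 D cyclins overlapped between the groups. Ccnd2 made up 43.6% ± 4.42 of their summed FPKM in WT and 47.4% ± 2.75 in PKI-labelled libraries, Ccnd1 44.2% ± 4.54 and 42.8% ± 5.76, and Ccnd3 12.2% ± 0.960 and 9.78% ± 3.71 (SD, n = 3 each). The exact permutation p was 0.4, 0.5 and 0.4, which does not show that the shares were equal. In PKI replicate 1 Ccnd3 made up 5.57%, below the 11.5% to 13.3% of the WT libraries. The summed D cyclin level was 17.5 ± 1.41 FPKM in WT and 27.1 ± 2.49 in PKI-labelled libraries. The ratio of summed CIP/KIP to summed D cyclin FPKM was 0.549, 0.583 and 0.514 in WT and 0.566, 0.503 and 0.463 in PKI-labelled libraries. These ratios overlapped, while the inhibitor that led the CIP/KIP sum was Cdkn1b in 2 of the WT libraries, Cdkn1c in WT replicate 1 and Cdkn1a in every library labelled PKI.

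Of the GADD45 genes, Gadd45g was called higher both as deposited and after scaling, 1 of 3 beside the 36.4% and 7.82% of all tested genes. The bases before the starts are shown so that the called gene can be set beside its relatives; differences between the changes of the 3 genes were not tested. Capitals mark matches on either strand to the E-box (CACGTG), the GC box (GGGCGG), the CCAAT box (CCAAT) and the TATA box (TATAAA). The stretches lie at chr13:51846425-51846674 (Gadd45g, plus strand), chr10:80929841-80930072 (Gadd45b, plus strand) and chr6:67037458-67037657 (Gadd45a, minus strand) of GRCm38.p6, and each ends before the first annotated transcribed base.
Gadd45g: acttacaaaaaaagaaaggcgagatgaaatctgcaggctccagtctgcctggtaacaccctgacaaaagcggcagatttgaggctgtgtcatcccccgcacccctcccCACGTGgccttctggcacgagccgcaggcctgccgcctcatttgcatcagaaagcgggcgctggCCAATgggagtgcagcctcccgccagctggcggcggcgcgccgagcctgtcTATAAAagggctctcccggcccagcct
Gadd45b: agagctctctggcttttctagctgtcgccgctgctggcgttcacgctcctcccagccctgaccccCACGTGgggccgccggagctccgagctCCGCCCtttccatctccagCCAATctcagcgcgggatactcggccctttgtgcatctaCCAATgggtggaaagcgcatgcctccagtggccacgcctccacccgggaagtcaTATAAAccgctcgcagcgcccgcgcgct
Gadd45a: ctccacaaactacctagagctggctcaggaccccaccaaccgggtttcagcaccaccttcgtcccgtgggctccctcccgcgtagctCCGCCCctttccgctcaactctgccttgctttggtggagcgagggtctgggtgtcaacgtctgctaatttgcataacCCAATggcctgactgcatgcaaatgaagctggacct
The Gadd45g stretch holds an E-box, a CCAAT box and a TATA box (at −27 to −22), and that of Gadd45b holds the same 3 kinds with a further CCAAT box and a GC box. Gadd45a holds a CCAAT box and a GC box, and these letters of the TATA box and E-box are not in its window. Over all 32851 windows, 13.6% held the TATA box, 7.15% the E-box, 37.4% the CCAAT box, and 81 windows (0.247%) all 3. Gadd45b, which shares these with Gadd45g, was 1.70-fold higher without being called (limma adjusted p = 0.0568). A link between these matches and the changes was not tested.

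Gadd45g (ENSMUSG00000021453, chromosome 13: 51846678 to 51848468) stood at 3.25, 1.93 and 2.21 FPKM in WT and at 6.96, 5.15 and 4.97 in PKI-labelled libraries. Every PKI value was above every WT value, and PKI replicate 1 was the highest. The log2 change was 0.96 (SE 0.17, 95% interval 0.566 to 1.35, adjusted p = 0.00618), and 0.73 after scaling (adjusted p = 0.0247). The call of Gadd45g was kept in all 15 alternative settings in which it was tested, with adjusted p from 0.00341 to 0.0280. Gadd45b (ENSMUSG00000015312, chromosome 10: 80930073 to 80932204), a target of NF-κB and TGF-β signalling, had 1.35, 0.825 and 1.86 FPKM in WT and 2.08, 2.83 and 1.96 in PKI-labelled libraries. These groups did not overlap, but the nearest values were 1.86 and 1.96, and the log2 change of 0.50 (SE 0.18) did not pass (adjusted p = 0.0568). After scaling it was 0.32 (adjusted p = 0.283), and without WT replicate 3 it passed as deposited (0.66, adjusted p = 0.0347). Gadd45a (ENSMUSG00000036390, chromosome 6: 67035096 to 67037457), the p53-induced member, had 4.16, 5.46 and 4.03 FPKM in WT and 7.32, 3.48 and 4.97 in PKI-labelled libraries. Here PKI held both the highest and the lowest library, with a log2 change of 0.14 (95% interval −0.380 to 0.650, adjusted p = 0.634) that turned to −0.11 after scaling and to −0.09 without PKI replicate 1.

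Within the family, Gadd45a made up 54.6% ± 10.3 of the summed FPKM in WT and 38.9% ± 7.57 in PKI-labelled libraries, and Gadd45g 29.3% ± 7.01 and 43.1% ± 1.65 (SD, n = 3 each). Neither share overlapped between the groups (exact permutation p = 0.1, the smallest possible, and 0.18 adjusted over 9 shares). Because the shares of a family sum to the whole in each library, these are not separate results. The Gadd45b share did overlap, at 16.1% ± 6.48 and 18.0% ± 6.11 (exact permutation p = 0.7). Gadd45a was the leading member in all 3 WT libraries, and in PKI-labelled libraries it led in replicate 1, Gadd45g led in replicate 2 and they were level in replicate 3 (41.7% and 41.8%).

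Mdm2 (ENSMUSG00000020184, chromosome 10: 117688875 to 117710758) rose modestly as deposited. Its values were 4.86, 3.56 and 4.30 FPKM in WT and 5.52, 6.13 and 5.69 in PKI-labelled libraries. The groups did not overlap, with a log2 change of 0.38 (SE 0.10, adjusted p = 0.0259), but after scaling it was 0.13 (95% interval −0.102 to 0.362) and did not pass (adjusted p = 0.423). Leaving out any library other than WT replicate 1 also lost the call, with adjusted p from 0.0524 to 0.0698. The p53 gene itself, Trp53, had 1.42 ± 0.232 FPKM in WT and 2.07 ± 0.335 in PKI-labelled libraries (log2 0.34, adjusted p = 0.0428; 0.15 after scaling, adjusted p = 0.376). Mdm4, whose product restrains p53 beside MDM2, was at 0.876 ± 0.0965 and 1.14 ± 0.0170 FPKM and did not pass (log2 0.19, adjusted p = 0.0704).

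Other genes of the p53 pathway were read from a list of 30 regulators and targets, of which 19 were tested. Of these, 13 rose and 0 fell as deposited, with a median log2 change of 0.39 against 0.21 over all tested genes, of which 36.4% were called higher and 2.96% lower. After scaling 3 were higher (Phlda3, Gdf15 and Btg2) and 1 lower (Sesn1), with a median of 0.18 against −0.02 and with 7.82% and 9.18% of all tested genes called. Phlda3, an inhibitor of AKT, stood at 2.27, 1.31 and 1.67 FPKM in WT and at 7.05, 7.22 and 7.20 in PKI-labelled libraries, 4.09-fold higher (adjusted p = 0.000591). The groups lie far apart, as they do for Cdkn1a. Gdf15, a secreted stress cytokine, was 6.96-fold higher (0.509 ± 0.245 and 3.54 ± 0.454 FPKM, adjusted p = 0.000721). All WT values of Gdf15 were under 1 FPKM, so it entered the test only through its PKI values, and its fold rests on a low WT level. The antiproliferative gene Btg2 was 2.42-fold higher (adjusted p = 0.00529) and the membrane protein gene Perp 1.502-fold (adjusted p = 0.00437). The count of 13 was 7 without WT replicate 2 or PKI replicate 3 and 8 without WT replicate 3 or PKI replicate 1.

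Of the 4 INK4 inhibitors, which block CDK4 and CDK6 alone, 2 were tested. Of these, 1 was called higher and 0 lower, beside 36.4% and 2.96% of all tested genes. Their median log2 change was 0.20 beside 0.21. Cdkn2a was listed at 0.156, 0 and 0 FPKM in WT and at 0.216, 0.0420 and 0.173 in PKI-labelled libraries, and Cdkn2b had a mean of 0.311 and 0.381, so both were under the level for testing. Cdkn2d rose 1.45-fold (2.88 ± 0.478 and 4.17 ± 0.0919 FPKM, adjusted p = 0.0173; not called after scaling, adjusted p = 0.240, or without PKI replicate 1), and Cdkn2c did not pass (log2 −0.03, 95% interval −0.314 to 0.263).

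Of the kinases that the D cyclins and inhibitors act on, Cdk4 was at 5.22 ± 0.0918 FPKM in WT and 6.20 ± 0.421 in PKI-labelled libraries (log2 0.21, adjusted p = 0.0491). That direction turned after scaling (−0.05, adjusted p = 0.714). Cdk6 (0.324 ± 0.0470 and 0.531 ± 0.0656 FPKM) and Cdk2 (0.789 ± 0.116 and 0.877 ± 0.178) were under the level for testing. In the list of 20 genes of the passage from G1 to S phase, 5 of 12 tested rose and 0 fell, beside 36.4% and 2.96% of all tested genes, with a median log2 change of 0.19 beside 0.21. The 4 with the smallest p were Mnat1 (1.52-fold), Rbl2 (1.28-fold), Cdk7 (1.36-fold) and Tfdp1 (1.199-fold, negative after scaling at −0.03). Mnat1 and Cdk7 encode parts of the kinase that activates other CDKs, and Rbl2 a relative of the retinoblastoma protein. After scaling 0 were higher and 1 lower (Tfdp2). This count depended on single libraries and was 0 to 2 when any 1 library was left out.

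Most genes of DNA replication and mitosis were under the level for testing. Of 25 in the list, 4 were tested, and 1 rose and 0 fell, beside 36.4% and 2.96% of all tested genes. The gene that rose was the replication helicase gene Mcm6 (0.685 ± 0.169 and 1.34 ± 0.0703 FPKM, adjusted p = 0.00893). Its WT mean was under 1 FPKM, so Mcm6 entered the test only through its higher PKI values. It did not pass after scaling (adjusted p = 0.0514). Pcna, the replication clamp that p21 and GADD45 proteins bind, had 7.02 ± 0.490 and 8.22 ± 0.386 FPKM and was not called (log2 0.20, adjusted p = 0.0639; −0.06 after scaling). All 21 untested genes had a higher mean in PKI-labelled libraries, and in 12 of them all PKI libraries lay above all WT libraries. Of the 14798 genes of the table that were above 0 and under the level for testing, 69.6% had a higher mean in PKI-labelled libraries and 15.2% had all of these above all WT libraries. More genes were above 0 there as well, 19803 to 20202 against 18672 to 19130 in WT, and the part of this in the counts was not tested. Mki67, the marker of cycling cells, had 0.173, 0.0577 and 0.106 FPKM in the WT libraries against 0.594, 0.403 and 0.399 in PKI-labelled libraries. Ccnb2, a mitotic cyclin gene, was listed at 0 in all 3 WT libraries and at 0.267, 0.564 and 0.318 in those labelled PKI. Pcna, Mki67 and Ccnb2 were picked out after their values were seen. Without the filter on low values, 7 of the 25 were called higher and 0 lower, where 11.1% of 24705 genes were called higher and 0.935% lower.

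The list of GADD45 partners and stress MAP kinases held 8 tested genes, of which 2 rose and 0 fell, where 36.4% of all tested genes rose. Its median log2 change of 0.13 lay below the 0.21 of all tested genes. Map3k4, the kinase that GADD45 proteins bind and activate, went from 4.98 ± 0.535 to 6.65 ± 0.472 FPKM (1.33-fold, adjusted p = 0.0207; not called after scaling, adjusted p = 0.484). Mapk12, a p38 kinase of striated muscle, went from 5.195 ± 0.217 to 8.16 ± 0.783 (1.57-fold, adjusted p = 0.00354; 0.0531 after scaling). Mapk14, the main p38 kinase gene, picked out after its values were seen, was not called (log2 −0.41, −0.67 after scaling). After scaling 0 of the 8 were called. Leaving out WT replicate 1 gave 4 calls, 3 higher and 1 lower, and leaving out WT replicate 3 or PKI replicate 3 gave 1.

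Of 14 tested genes for the turnover of CDK inhibitors, D cyclins and p53, 7 rose and 1 fell, where 36.4% and 2.96% of all tested genes did, and the median log2 change of 0.20 was close to the 0.21 of all tested genes. Those with the smallest p were the ubiquitin ligase subunits Skp1a (1.33-fold), Ddb1 (1.24-fold) and Cul4b (1.40-fold) and Ambra1 (1.40-fold), a ligase adaptor for D cyclins. Fbxo31, an F-box protein that targets cyclin D1, was the gene that fell (8.32 ± 0.444 and 7.05 ± 0.335 FPKM, log2 −0.21, adjusted p = 0.0472) and it was lower after scaling too (adjusted p = 0.00632). It was then the single gene of the list called. Fbxo31 was not called in any fit that left out 1 library, and the list's count was 2 to 5 in those fits.

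Of 21 tested transcription factor genes known to act on these promoters, 13 rose and 0 fell, beside 36.4% and 2.96% of all tested genes, and the median log2 change was 0.36 beside 0.21. After scaling 4 were higher, beside 7.82%, and the median was 0.15 beside −0.02. Those 4 were also the ones with the smallest p: Egr1 (3.10-fold, 1.81 ± 0.490 and 5.62 ± 0.412 FPKM, adjusted p = 0.00125), Cebpa (2.35-fold), Atf4 (1.72-fold) and Stat3 (1.68-fold). Cebpa was at 0.706 ± 0.0507 FPKM in WT and 1.66 ± 0.176 in PKI-labelled libraries, so it entered the test only through its PKI values. Foxo1, Foxo3 and Foxo4, which induce Cdkn1b and Gadd45a in resting cells, were not called (log2 0.14, 0.04 and −0.05); they and Myc were picked out after their values were seen. Myc, which represses Cdkn1a and induces Ccnd2, was under the level for testing at 0.425 ± 0.0992 and 1.21 ± 0.246 FPKM. Without WT replicate 3 the count of 13 was 6.

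**Figure D4:**
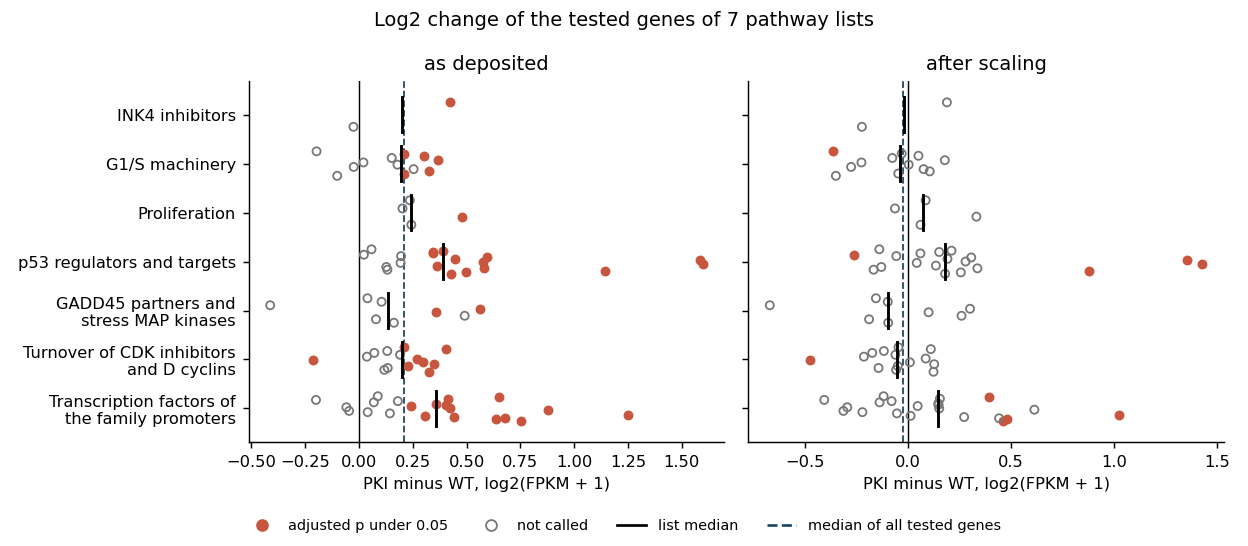
Log2 change, PKI minus WT on the log2(FPKM + 1) scale (horizontal axes), of each tested gene of 7 pathway lists (rows), as deposited (left) and after scaling (right). Filled points passed at an adjusted p under 0.05, black bars are list medians and the dashed line is the median of all tested genes; in the p53 row 13 of 19 points are filled on the left and 4 on the right.

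Markers of some other cell types differed between the groups in the same libraries. Over all tested genes, 36.4% were called higher and 2.96% lower as deposited, and 7.82% and 9.18% after scaling. Fibroblast markers summed to 86.3 to 128 FPKM in WT and 256 to 333 in PKI-labelled libraries (7 of 8 higher, 7 after scaling; Dcn and Lum had the highest levels). Macrophage markers summed to 70.1 to 108 and 212 to 229 FPKM (8 of 8 higher, 7 after scaling; Lyz2 and C1qa highest). Smooth muscle and pericyte markers summed to 123 to 151 and 186 to 222 (3 of 6 tested higher; 1 higher and 1 lower after scaling; Rgs5 and Acta2 highest), and endothelial markers, led by Fabp4 and Cdh5, to 120 to 126 and 126 to 145 (2 of 7 higher; 0 higher and 1 lower after scaling). Red blood cell markers, led by Hbb-bs and Hba-a1, were lower, at 379.9 to 538 and 274 to 338 (5 of 5 lower, 5 after scaling). Of 5 atrial markers, 1 was higher, Nppa, which stressed ventricles also express, at 261 ± 69.0 and 1088 ± 413 FPKM. The list summed to between 270.1 and 478 FPKM in WT and between 666 and 1497 with the PKI label, most of it Nppa in the latter. The other 4 did not pass and had lower means in PKI-labelled libraries, with log2 changes from −0.56 (Bmp10) to −1.72 (Sln). Myl7 had 74.3, 40.5 and 91.3 FPKM in WT against 6.61, 14.8 and 81.9, and for Myl7, Sln and Myl4 PKI replicate 3 stood far above the other PKI-labelled libraries. Lymphocyte markers, with Nkg7 and Cd79a highest, summed to 0.591 FPKM or less in every library. No defining marker was at 0 in all 6 libraries. Cdkn1a, Ccnd1, Ccnd2 and the GADD45 genes are expressed by several of these cell types, and the part of these differences in the results above was not tested.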

How the data were processed

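Left ventricular RNA was sequenced in 3 WT libraries and 3 labelled PKI. The authors deposited FPKM per gene; the submitters' processing notes name Bowtie 0.12.2, CASAVA and mm9, and what program and annotation gave the FPKM is not given in the sources used here. Both deposited gene tables, with and without symbols, held 0 values differing by more than 1e-06. Identifiers were looked up in GENCODE M21 (GRCm38) for positions, with no conversion of coordinates, and promoter sequences came from RefSeq (GRCm38.p6). Without counts, read depth is unknown and values carry no counting interval.

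Of 52550 genes, 24705 were above 0 in a library and 9907 had a mean of at least 1 FPKM. These were tested as log2(FPKM + 1) with limma 3.58.1 (R 4.3.3) with a variance trend, Benjamini-Hochberg adjustment over all 9907 and a threshold of 0.05, after a test on simulated data. Log2 changes are on that scale and understate the change of low genes, while folds are ratios of mean FPKM. The mean used as a filter is over both groups. A gene with a WT mean under 1 FPKM could thus be tested only through higher PKI values, and the reverse. Shares were compared with exact two-sided permutation tests over samples. Scaling by median-of-ratios size factors, other scalings, pseudocounts, filters, variance models and leaving out each library were the alternatives. The genes named were the 10, Ppargc1a, Trp53, Mdm4, Cdk2, Cdk4, Cdk6, the 4 called genes of each pathway list with the smallest p, and the 2 highest markers of each cell type; further names (Cdkn2a, Cdkn2b, Cdkn2c, Pcna, Mki67, Ccnb2, Mapk14, Fbxo31, Tfdp2, Sesn1, Foxo1, Foxo3, Foxo4, Myc and the markers Myl2, Tnni3, Pln, Sln, Myl4 and Bmp10) were chosen after their values were seen. The 10 genes and all lists were chosen with earlier results of these data known.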

Additional observations from a re-analysis of the deposited data

How the results depend on the processing

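The scaling of the libraries changed the results most often. Of 9907 tested genes, 3902 were called (3609 higher, 293 lower). This became 1684 (775, 909) with median-of-ratios factors and 1515 (753, 762) with quantile normalisation. Scaled to FPKM outside mitochondrial genes and their nuclear copies, it was 1622 (1019, 603). At a minimum mean of 5 FPKM 1925 of 3935 tested genes were called (1739, 186), and without a filter 2977 of 24705 (2746, 231). Of the 10 genes, 5 were called as deposited. Under the 3 scalings and without a filter 3 were called (Cdkn1a, Ccnd2 and Gadd45g), and at a minimum mean of 5 FPKM the 3 genes still tested (Ccnd1, Ccnd2 and Mdm2). The pathway counts below add higher and lower calls. They follow the order median-of-ratios, quantile, outside mitochondrial genes, minimum mean of 5 and no filter. INK4 counted 0, 0, 0, 0 and 0 (from 1). G1/S counted 1, 1, 0, 2 and 2 (from 5), and the calls under the first 2 settings were lower. Replication and mitosis counted 0, 0, 1, 0 and 7 (from 1), with 2 without a variance trend and 3 with array weights. The p53 list counted 4, 4, 5, 5 and 8 (from 13), with 1 of the first 4 lower. GADD45 partners counted 0, 1, 1, 2 and 1 (from 2). Turnover counted 1, 1, 1, 5 and 2 (from 8), with 1 lower call in each setting but the last. Transcription factors counted 4, 4, 5, 7 and 10 (from 13). In the same list order, 2, 12, 4, 19, 8, 14 and 21 genes were tested in the main fit. At a minimum mean of 5 FPKM 0, 3, 1, 9, 5, 8 and 10 were tested, and without a filter 4, 20, 25, 30, 12, 16 and 23. The causes were not tested, beyond fewer or more genes entering the test.

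Leaving out 1 library gave 2344 to 3425 calls (2179 to 3162 higher, 165 to 263 lower), 3 to 5 of the 10 genes, 0 to 1 INK4, 0 to 2 G1/S, 1 to 2 replication, 7 to 10 p53, 1 to 4 GADD45 partner, 2 to 5 turnover and 6 to 11 transcription factor genes. The log2 change of Ccnd3 turned with median-of-ratios (−0.0185), quantile (−0.0337) and without PKI replicate 3, and ranged from −0.0231 to 0.466 over the leave-outs. That of Gadd45a turned with median-of-ratios (−0.110), quantile (−0.110), outside mitochondrial genes (−0.0405) and without PKI replicate 1, and ranged from −0.0933 to 0.353. The Ccnd1 share difference of −1.41 points ranged from −4.66 to 1.17 (positive without WT replicate 1 and, at 0.834, without PKI replicate 2), and the Gadd45b difference of 1.83 from −1.53 to 5.24 (negative without PKI replicate 2 and, at −1.21, without WT replicate 2). The Ccnd2 difference of 3.82 was 1.45 without WT replicate 1 and 2.29 without PKI replicate 2, up to 5.83 without WT replicate 2. That of Ccnd3 (−2.41) was −0.300 without PKI replicate 1 and −3.80 without PKI replicate 3, and that of Gadd45a (−15.7) was −9.72 without WT replicate 2.

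Same-numbered samples did not deviate together (r = −0.10, 0.00115 and 0.0529 across genes), and differently numbered pairs ranged from −0.128 to 0.112. With 3 libraries per group these values cannot show whether the replicate numbers mark a pairing. With the replicate number as a block 2849 genes were called (2625 higher, 224 lower), and 4 of the 10, with Mdm2 lost (adjusted p = 0.0592) and Cdkn1a kept (adjusted p = 0.00470). G1/S counted 2, turnover 2, p53 9 and transcription factors 11. The smallest p of the exact sign-flip test of 3 within-number differences was 0.25. Depth is unknown, so genes under about 1 FPKM carry the least certain values.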
